A study of Mus musculus with 34 samples.

Results

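The 8 genes described here were the Pax genes Pax2, Pax3, Pax5, Pax6, Pax7 and Pax8 and the Engrailed genes En1 and En2, of 20141 genes that could be named on the array. They were taken by name, with every probe whose RefSeq accession belonged to one of them, which gave 13 of 55681 probes. The rule uses names and no measured value, although earlier results of these data were known when the group was proposed. Pax proteins bind DNA through a paired domain, and most of the members also carry a whole or partial homeodomain. Engrailed proteins are homeodomain repressors. In the embryo En1, En2, Pax2, Pax5 and Pax8 act at the border of midbrain and hindbrain, where an organizing centre patterns the tectum and the cerebellum. Pax3 and Pax7 mark dorsal neural tube and tectum, and Pax6 acts in cortical progenitors, cerebellar granule cells and the olfactory bulb.

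The samples were brains of 3 male C57BL/6J mice at 3 days after birth. Each brain was cut in 1 plane into slices of 5 µm, and 100 consecutive slices were joined into a fraction of 500 µm, with 15 coronal fractions from mouse 1, 8 horizontal fractions from mouse 2 and 11 sagittal fractions from mouse 3. Sagittal fractions 1 and 11 each pooled 2 cut fractions. Every fraction was hybridised once to a 1-colour Agilent array, so that the plane and the mouse cannot be told apart, and no fraction had a replicate. Means, SDs and tests below were therefore taken over neighbouring fractions of 1 brain, and their p-values measure the spread between fractions and not between animals. A lower value in a fraction can mean fewer cells of a type or less RNA per cell, which cannot be told apart.

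The labels did not say at which end the fractions were counted, and marker genes were used to read the axes. The 7 Hox genes of the hindbrain list had their highest summed level in coronal fraction 2, the Purkinje cell list in fraction 1, the serotonin neuron list in fraction 5, the midbrain dopamine neuron list in fraction 6, the cortex list in fraction 13 and the olfactory bulb list in fraction 15. In the horizontal series the cortex list peaked in fraction 2 and the hypothalamus list in fraction 8. In the sagittal series the cortex list peaked in fraction 1 and the serotonin neuron list in fraction 6. Of the 6 skeletal muscle genes, Acta1 and Myh8 were detected in all fractions, Ckm and Myog in few, and Myod1 and Myf5, the defining regulators, in none. The summed muscle level ran from 0.37 to 2.52 over coronal fractions, and its part in the Pax3 and Pax7 values was not tested. Between 29598 and 37091 of 59305 spots were well above background on an array, and none was saturated. The arrays lay on 5 slides. Coronal fractions 1 to 8 shared slide 2, and slide 3 held 6 of the other coronal fractions.

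Values are log2 of the processed signal less log2 of the 75th percentile of the same array, so that 0 is the level of a probe at that percentile. A probe is called detected in a fraction where Agilent's flag placed it well above the local background. Repeated spots of 1 probe differed by an SD of 0.077 between values of 0 and 2, of 0.20 between -4 and -3 and of 0.58 between -6 and -5. The number of arrays limits the precision further, because each position was measured once. Levels of different probes were not compared with each other.

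Upstream sequence is shown for the 3 clearly detected Pax genes that had a window in the RefSeq promoter table. Each run is the 250 bases before a start site on build GRCm38.p6, 5′ to 3′ on the strand of the gene. Capitals mark ATTGG or its reverse complement CCAAT, the core of the CCAAT box.
Pax6, chr2:105668646-105668895, + strand: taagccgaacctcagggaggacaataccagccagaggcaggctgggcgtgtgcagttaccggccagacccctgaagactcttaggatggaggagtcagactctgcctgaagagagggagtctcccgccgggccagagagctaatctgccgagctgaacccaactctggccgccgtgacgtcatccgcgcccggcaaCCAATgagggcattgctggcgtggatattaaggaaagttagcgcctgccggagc
Pax7, chr4:139832969-139833218, - strand: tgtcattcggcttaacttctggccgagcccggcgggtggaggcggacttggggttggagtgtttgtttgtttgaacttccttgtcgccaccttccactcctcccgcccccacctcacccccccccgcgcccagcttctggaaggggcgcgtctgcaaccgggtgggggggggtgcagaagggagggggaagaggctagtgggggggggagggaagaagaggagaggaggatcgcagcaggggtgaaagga
Pax8, chr2:24475600-24475849, - strand: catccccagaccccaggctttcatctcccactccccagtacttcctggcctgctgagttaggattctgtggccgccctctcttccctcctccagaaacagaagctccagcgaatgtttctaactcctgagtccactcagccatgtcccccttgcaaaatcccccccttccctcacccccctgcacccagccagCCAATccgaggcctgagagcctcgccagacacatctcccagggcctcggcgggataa
Pax8 and this window of Pax6 each held 1 match, and Pax7 held none. Another Pax6 window, not shown, also held none. ATTGG, searched on both strands, occurred in 33.85% of the 32851 windows in the table and in 3 of the 9 member windows, close to that share. TAATTA, the core bound by many homeodomains, occurred in 4.84% of all windows and in 0 of the 9 windows that belonged to 6 of the members. TATAAA, the TATA box, occurred in 12.37% of all windows and also in 0 of those 9. These matches are descriptions of letters in a window, and a missing match says nothing of the factors that bind there.

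En2 was detected in all 34 fractions. In coronal fractions 1 to 4 it stood at 2.60, 2.71, 3.05 and 2.87. It fell to 1.87 and 1.14 in fractions 5 and 6, and to -1.02 in fraction 7. The step of -2.16 between fractions 6 and 7 was the largest between neighbours. Its lowest coronal value was -3.39 in fraction 9, 86.9-fold below fraction 3, and the level rose again to -1.89 in fraction 15. Fractions 1 to 3 held 58.2% of its summed coronal signal and fractions 4 to 6 held 36.7%. Fraction 3 exceeded fraction 4 by 0.18, within 2.8 times the SD of repeated spots, so that these could not be ordered.

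En1 was hardly detected by its only probe, and a weak probe and a low RNA level cannot be told apart. Its probe, printed as 10 spots, was well above background in 2 of 34 fractions, coronal fraction 3 at -4.52 and coronal fraction 4 at -4.05. The neighbouring fractions 2 and 5 read -5.52 and -5.07 and were not well above background. It was not detected in any horizontal or sagittal fraction, where its highest readings were -5.51 in horizontal fraction 5 and -5.30 in sagittal fraction 6. The 2 detected fractions were the same 2 that were highest for En2.

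**Figure D1:**
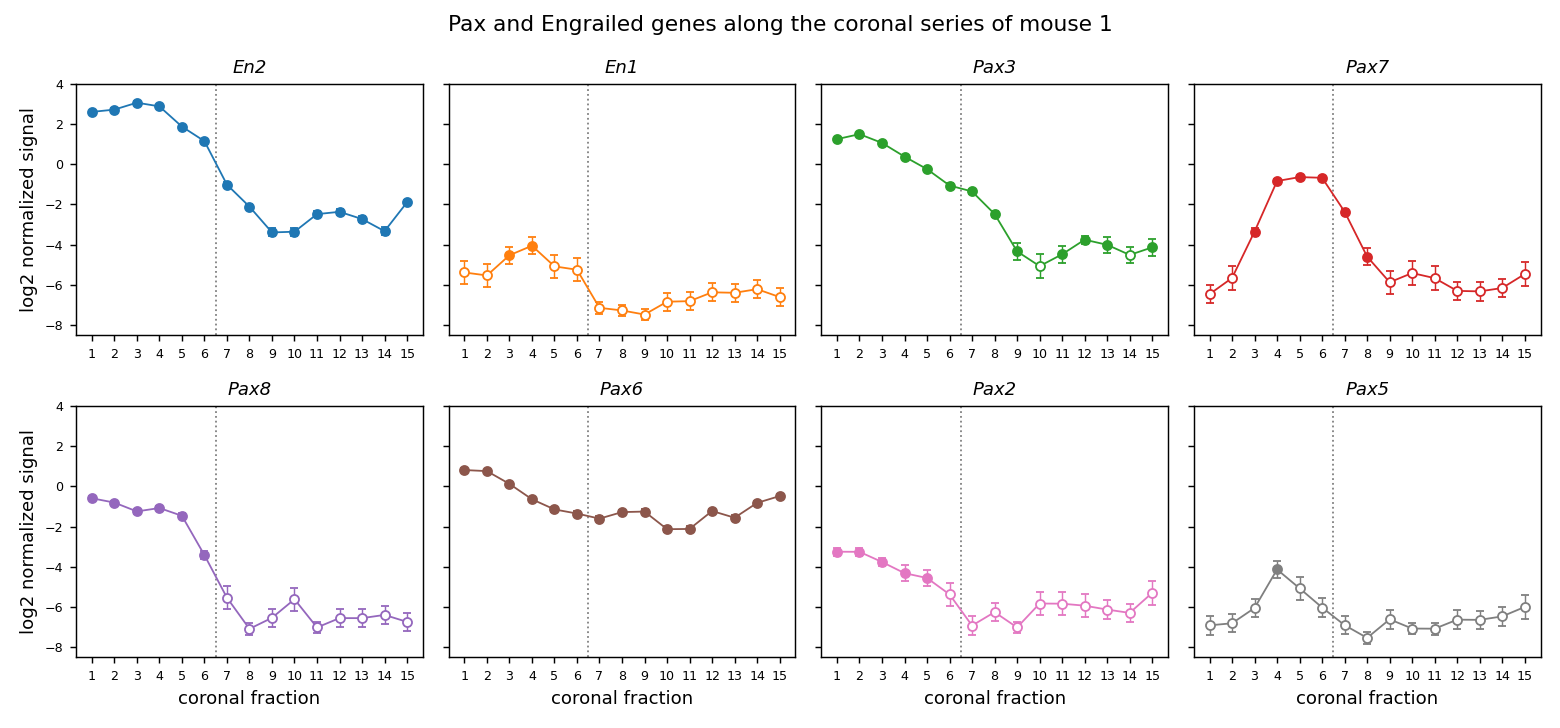
Log2 normalized signal of the 8 genes by coronal fraction of mouse 1, 1 probe per gene; filled points were well above background, open points were not, bars are the SD of repeated spots at that brightness, and the dotted line separates fractions 1 to 6 from 7 to 15. En2 and Pax8 drop between fractions 6 and 7, Pax7 is high in fractions 4 to 6 with -0.64 at its highest, and Pax6 rises again to -0.49 in fraction 15.

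Pax3 and Pax7, the pair that marks dorsal neural tube, had different coronal profiles. Pax3 was highest in fractions 1 and 2, at 1.24 and 1.49, and declined through 1.06, 0.38, -0.25 and -1.06 to -1.35 in fraction 7. It reached -4.33 in fraction 9, and beyond that it stayed between -5.06 and -3.75. Pax7 was not detected in fractions 1 and 2. It rose from -3.34 in fraction 3 to -0.84, -0.64 and -0.67 in fractions 4 to 6, and fell to -2.36 and -4.59 in fractions 7 and 8. Fractions 4 to 6 held 78.9% of the summed coronal signal of Pax7 and 24.2% of that of Pax3. From fraction 9 onward Pax7 was not well above background. The second Pax3 probe, printed as 10 spots, followed the first with r = 0.99 across the fractions of the coronal plane and with 1.00 and 0.99 across the other planes.

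Among Pax2, Pax5 and Pax8, the subfamily of the midbrain and hindbrain border, Pax8 was detected in 6 coronal, 6 horizontal and 7 sagittal fractions, more often than Pax2 or Pax5. Pax8 stood at -0.60, -0.81, -1.25, -1.08 and -1.47 in coronal fractions 1 to 5. It dropped to -3.42 in fraction 6 and was not detected in fractions 7 to 15. Pax2 was detected in coronal fractions 1 to 5 by 1 of its 3 probes, at -3.25, -3.26, -3.76, -4.32 and -4.56. Another Pax2 probe was never detected. The remaining one was detected in 4 scattered fractions, at -4.93 in coronal fraction 3, -4.42 in horizontal fraction 5, and -2.41 and -3.57 in sagittal fractions 6 and 11, none of which the first probe had as its highest. Values of Pax2 thus depended on the probe, and the first, which had the highest median, is used below.

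Pax5, known in B cells and at the embryonic midbrain and hindbrain border, was detected once in each brain by 1 of its 2 probes. These were coronal fraction 4 at -4.13, horizontal fraction 4 at -5.36 and sagittal fraction 4 at -5.08. In each plane the gap to the next fraction was smaller than 2.8 times the SD of repeated spots at that brightness. The other Pax5 probe was not detected in any fraction. The B cell list had 4 of 6 genes detected in each plane, Cd79b and Vpreb1 in all fractions, while Ms4a1 and Igll1 were not detected, and its summed level ranged from -1.36 to -0.29 over coronal fractions with the highest in fraction 12. It was -1.06 in coronal fraction 4.

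Pax6 was detected in all 34 fractions and was high at both ends of the coronal axis. Fractions 1 and 2 read 0.80 and 0.75. The level fell to -1.61 in fraction 7 and -2.13 in fraction 10, and was again -0.83 and -0.49 in fractions 14 and 15. The whole coronal range was 7.66-fold. Fractions 1 to 3 held 46.8% of its summed coronal signal and fractions 13 to 15 held 16.7%. The olfactory bulb list rose over the same end, from 3.76 in fraction 13 to 6.12 and 6.36 in fractions 14 and 15, and the granule cell list was highest in fraction 2 at 7.13. The part of those cells in the Pax6 values was not tested. The dimmer Pax6 probe was detected in coronal fractions 1 to 4 alone and read -4.96 without detection in fraction 15.

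The coronal comparison asked whether fractions 1 to 6, with the hindbrain, cerebellar and midbrain lists, differed from fractions 7 to 15. This border was chosen with earlier results of these data known, so the p-values do not test an independent split. Of the 8 members, 6 were higher in fractions 1 to 6 at an adjusted p under 0.05 in limma, and none was lower. Among the called members, Pax8, Pax2 and En1 were detected in none of fractions 7 to 15. They therefore entered the test only through fractions 1 to 6, as did Pax5, which was not called. Over all 39427 probes tested, 4.88%, or 1926, were higher, a number that ran from 1169 without fraction 3 to 2164 without fraction 7. En2 ranged from 1.14 to 3.05 in fractions 1 to 6 (median 2.65) and from -3.39 to -1.02 in fractions 7 to 15 (median -2.48). The groups did not overlap, and the difference was 4.89 ± 0.38 (SE, n = 6 and 9 fractions), or 29.6-fold, with a limma adjusted p of 1.26e-05. Pax8 ranged from -3.42 to -0.60 against -7.08 to -5.53, also without overlap. It was at least 10.1-fold higher in fractions 1 to 6, with a limma adjusted p of 1.26e-05, taking for the fractions without detection the higher of the probe's own value and the lowest signal of any spot well above background on that array. Pax3 ranged from -1.06 to 1.49 against -5.06 to -1.35. Its groups did not overlap, and the difference was 4.26 ± 0.54 (SE), with a limma adjusted p of 0.000448. It was at least 18.4-fold higher, with its 2 undetected fractions at the same floor.

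The other calls rested on dim or overlapping values. Pax2 was at least 1.61-fold higher in fractions 1 to 6 (limma adjusted p = 0.0018), with fraction 6 within the range of the others. The other tested Pax2 probe differed by 0.54 and did not pass (limma adjusted p = 0.228). En1 had a measured difference of 1.82 ± 0.25 (SE, limma adjusted p = 0.000711), but only 2 of its fractions were above background and no fold is given. With its undetected fractions at the same floor as for Pax8, the En1 difference was 0.0043. Pax6 differed by 1.14 ± 0.36 (SE), or 2.21-fold, with overlapping groups and a limma adjusted p of 0.0454. That call was lost when any of 11 single fractions was left out, for example at an adjusted p of 0.110 without fraction 2. The dimmer Pax6 probe differed by 0.78 and did not pass (limma adjusted p = 0.316). Pax7 differed by 2.41 ± 0.93 (SE) and Pax5 by 0.94 ± 0.37, and neither passed (limma adjusted p = 0.0958 and 0.101). Pax7 passed without fraction 1, where it was not detected, at an adjusted p of 0.0297, and without fraction 7, at 0.0444.

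Slides 2 and 3 split close to the border of this comparison. Within slide 2, which held fractions 1 to 8, the differences between fractions 1 to 6 and fractions 7 and 8 kept their sign for all 8 members, at 3.94 for En2, 4.87 for Pax8, 2.39 for Pax3, 2.23 for En1, 2.50 for Pax2, 1.20 for Pax6, 1.38 for Pax5 and 0.54 for Pax7. None passed there, with limma adjusted p between 0.113 and 0.913, and 0.0268% of all 37274 probes tested there passed. With the slide as a block, 2 members passed, En2 at a limma adjusted p of 0.0121 and Pax8 at 0.0107, against 0.0888% of all probes.

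Along the whole coronal axis, a smooth curve of 4 degrees of freedom was tested against a flat line. All 8 members passed, with limma adjusted p from 1.26e-06 for En2 to 0.0062 for Pax5. With normexp background correction Pax5 and En1 did not pass (adjusted p = 0.109 and 0.101), nor did Pax5 with 3 degrees of freedom (0.0646). The other tested probes of Pax2 and Pax6 did not pass either (limma adjusted p = 0.571 and 0.0824). The share has to be read against 51.8% of all probes that passed the same test.

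**Figure D2:**
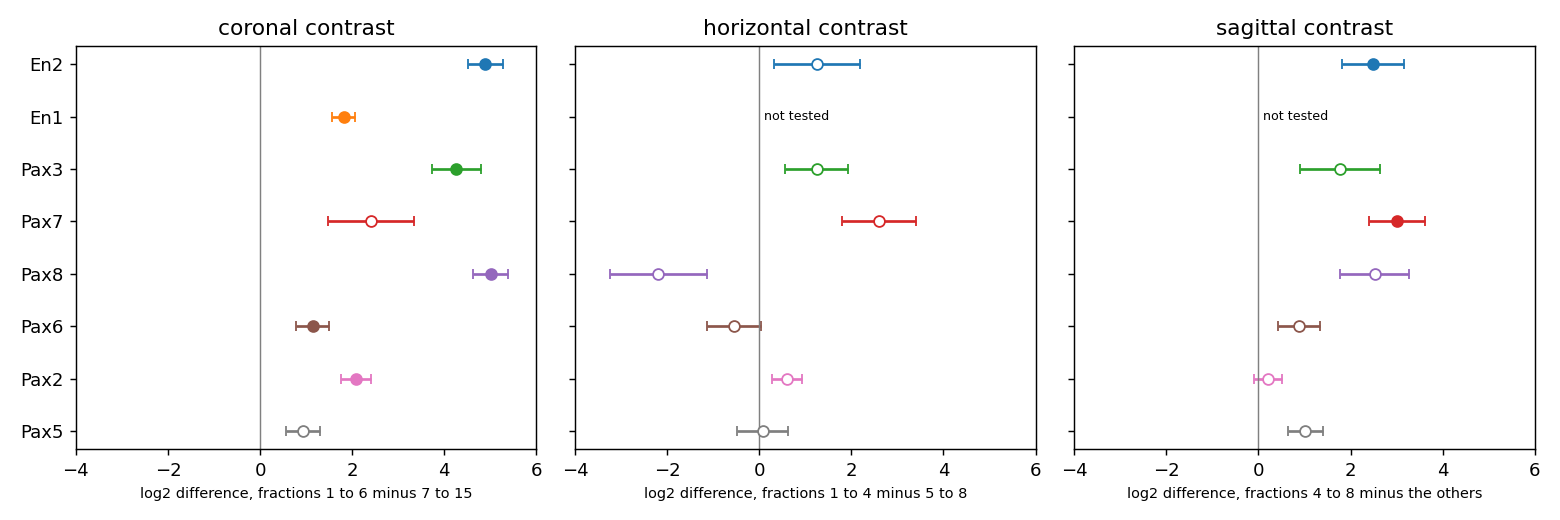
Log2 difference of each member between the fractions named under each panel, with its standard error; filled points had an adjusted p under 0.05 in limma, open points did not, and En1 was not tested where it was never detected. The coronal panel holds 6 filled points, the horizontal panel none and the sagittal panel 2, Pax7 at 3.01 and En2 at 2.49.

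In the horizontal series of mouse 2 the members peaked at different depths. Pax7 was highest in fraction 2 at 0.08, against -1.07 and -1.44 in fractions 1 and 3 and -3.17, -2.85, -3.10 and -4.51 in fractions 4 to 7. The lead of fraction 2, 1.15, was larger than 2.8 times the SD of repeated spots. En2 was highest in fraction 4 at 2.31, and read -0.53, -0.51 and 1.72 in fractions 1 to 3 and -0.09, -1.70 and -1.75 in fractions 6 to 8. Fraction 5 lay between fractions 3 and 6. Pax6 was also highest in fraction 4, at 0.10, and lowest in fraction 2, at -2.81. Pax3 lay between -0.40 and -0.32 in fractions 3 to 5, which repeated spots did not separate, and declined to -3.68 in fraction 8.

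Pax8 differed from the others in this plane. It was highest in fraction 7 at -2.16, and read -4.36, -2.88, -2.43 and -5.18 in fractions 4, 5, 6 and 8. It was not detected in fractions 2 and 3, but read -3.09 in fraction 1. The hindbrain list had the same shape, with a summed level of 2.01 in fraction 1, -3.93 and -4.29 in fractions 2 and 3, and 3.16, 3.29 and 2.85 in fractions 5 to 7. Fraction 1 lay on the same slide as fraction 2 and fractions 5 to 8, and fractions 3 and 4 lay on slide 5. The part of hindbrain tissue in the Pax8 value of fraction 1 was not tested.

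No member passed the comparison of horizontal fractions 1 to 4 with 5 to 8, in limma or with limma-trend, and 1 of the 7 tested, Pax7, was under 0.05 before adjustment in limma, as were 14.3% of all probes. Over all 36777 probes, 0.00272% were higher in fractions 1 to 4. Pax7 had the largest positive difference, 2.60 ± 0.81 (SE, n = 4 and 4 fractions, limma adjusted p = 0.214), and Pax8 the largest negative one, -2.19 ± 1.05 (adjusted p = 0.404). En2 differed by 1.26 ± 0.93, and within slide 1, which lacked fractions 3 and 4, by -0.01. Within that slide Pax7 differed by 3.51 (adjusted p = 0.0944). The curve of 3 degrees of freedom along the axis was passed by 1 member, Pax3, with both of its probes (limma adjusted p = 0.0435 and 0.0333), against 0.492% of all probes. Without fraction 1 the adjusted p of Pax3 was 0.0568, and without the 2 arrays of slide 5 it was 0.297. With limma-trend 4 members passed, Pax3, Pax7, Pax8 and En2, against 5.85% of all probes with that setting.

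In the sagittal series of mouse 3 En2 formed an arch. It read -3.41, -2.27, 0.22, 0.96, 1.46, 1.62, 1.46, 1.14, 0.52, -0.20 and -1.83 in fractions 1 to 11. Fractions 5 to 7 could not be ordered beyond the spread of repeated spots. Pax7 had the same form over a narrower stretch, at -2.94, -2.02, -1.70, -1.49, -1.48, -2.45, -3.58 and -4.66 in fractions 3 to 10, and was not detected in fractions 1, 2 and 11. Pax3 lay between -0.94 and -0.37 in fractions 3 to 10, and fell to -3.30 and -3.14 in fractions 2 and 11. Its highest value, in fraction 6, led fraction 7 by 0.40, more than 2.8 times the SD of repeated spots.

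Pax8 was detected in sagittal fractions 4 to 10, at -2.65, -2.30, -2.84, -3.04, -2.38, -2.26 and -4.35. Its 2 high stretches, fractions 4 and 5 and fractions 8 and 9, were not separated from each other by the spread of repeated spots. Pax6 read -0.38 in fraction 6, where its repeated spots differed by an SD of 0.948, and -0.69 and -0.71 in fractions 10 and 7, so that its highest fraction was not settled. Its lowest value was -3.41 in fraction 1. Pax2 was detected in fractions 3, 4, 5 and 8, between -4.78 and -4.19.

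**Figure D3:**
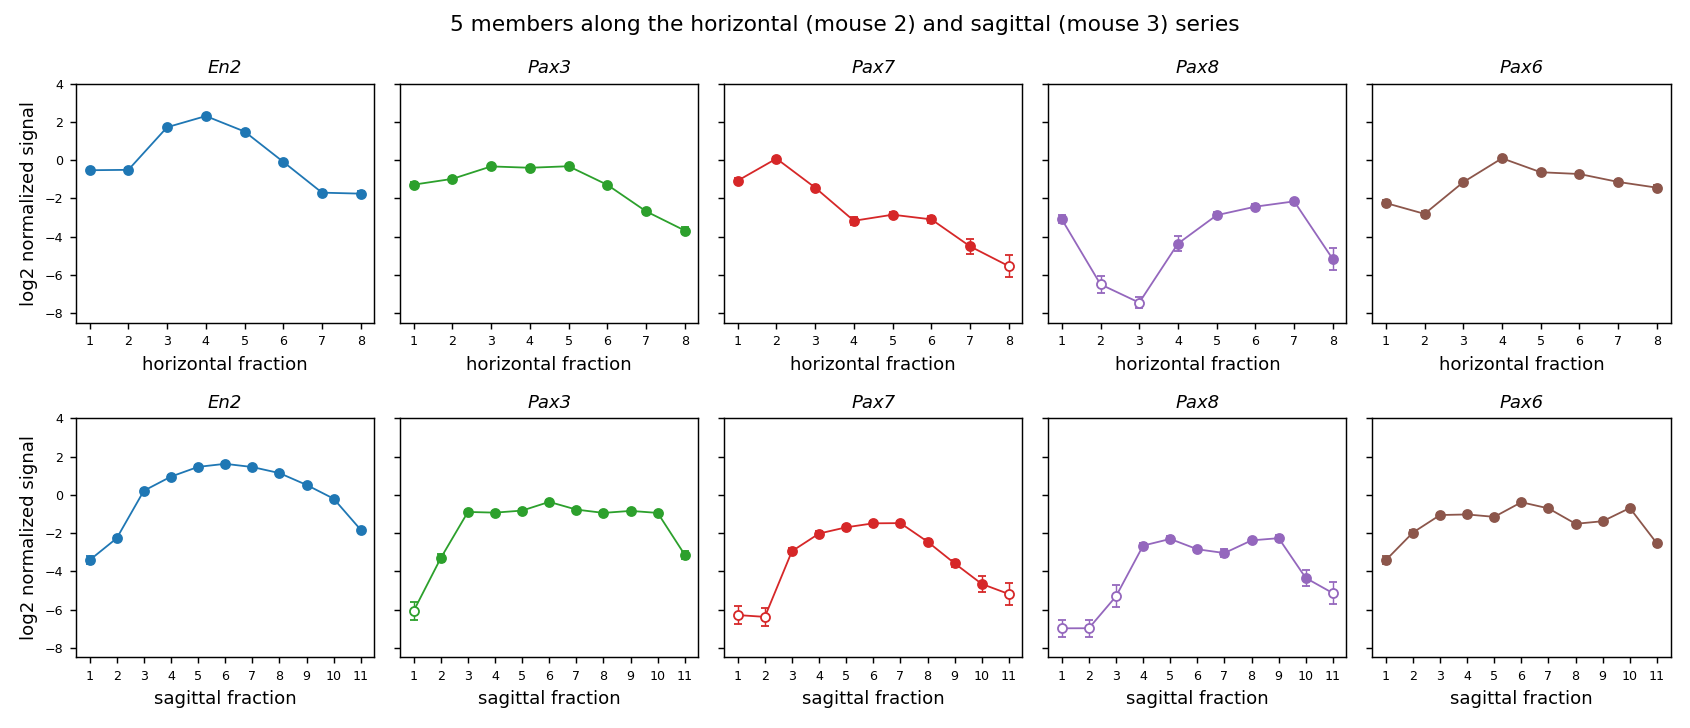
Log2 normalized signal of 5 members by horizontal fraction of mouse 2 (upper row) and sagittal fraction of mouse 3 (lower row); filled points were well above background, open points were not, and bars are the SD of repeated spots at that brightness. Pax7 peaks in horizontal fraction 2 at 0.08, Pax8 is at -3.09 in horizontal fraction 1 and undetected in fractions 2 and 3, and En2 forms an arch along the sagittal axis with 1.62 in fraction 6.

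Sagittal fractions 4 to 8 were compared with fractions 1 to 3 and 9 to 11, taking fraction 6 as the middle, which the labels did not state. Of 7 members tested, 2 were higher in fractions 4 to 8, against 4.07% of 38275 probes, or 1556 probes. That number ran from 333 without fraction 7 to 2297 without fraction 9. Pax7 ranged from -2.45 to -1.48 in fractions 4 to 8 and from -6.38 to -2.94 in the others, without overlap, with a difference of 3.01 ± 0.60 (SE, n = 5 and 6 fractions) and a limma adjusted p of 0.0197. It was not detected in 3 of the other 6 fractions, and against the same floor as for Pax8 it was at least 5.49-fold higher. En2 ranged from 0.96 to 1.62 against -3.41 to 0.52, also without overlap, with a difference of 2.49 ± 0.66, or 5.61-fold, and a limma adjusted p of 0.0451. Pax8 differed by 2.52 ± 0.75 with overlapping groups and did not pass (limma adjusted p = 0.0607). The call for Pax7 was lost without fraction 5 or fraction 7, at adjusted p of 0.0531 and 0.0566. The call for En2 was lost without any of 9 of the 11 fractions, at adjusted p from 0.0538 to 0.0957. Pax8 passed without fraction 9 (adjusted p = 0.00716) and Pax5 without fraction 3 (adjusted p = 0.0189).

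Within slide 4, which held sagittal fractions 2 to 9, the differences were 2.48 for Pax7 and 1.84 for En2, with limma adjusted p of 0.166 and 0.191. The curve along the sagittal axis was passed by 4 members, En2, Pax3, Pax7 and Pax8, with limma adjusted p of 0.0011, 0.0057, 0.0106 and 0.0321, against 9.93% of all probes.

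Mirror fractions, those whose numbers add up to 12, were compared as 5 pairs. In limma no member passed the test between the sides, 0.00% of all probes passed, and 3318 probes were under 0.05 before adjustment, among them Pax2. Pax2 was lower on the side of the high numbers in 5 of 5 pairs, with a mean difference of -0.68 ± 0.16 (SE), where its values were near background (limma adjusted p = 0.541). Pairs near the middle lay close together for En2, with differences of 0.18 and -0.01 for the pairs 4 with 8 and 5 with 7. The outer pairs lay further apart, with fraction 10 above fraction 2 by 2.07 and fraction 11 above fraction 1 by 1.58. Pax3 had the same feature, with 2.36 for fractions 10 and 2, and at least 1.62 for fractions 11 and 1, since it was not detected in fraction 1. For Pax8 fraction 9 exceeded fraction 3, where it was not detected, by at least 2.65. The hindbrain list read -2.03 in fraction 3 and 3.19 in fraction 9. Fraction 1 lay on slide 3 and fractions 10 and 11 on slide 5, so for the outer pairs the side cannot be told apart from the slide.

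How closely the members followed each other was described by Pearson's r across the fractions of a plane. Fractions share their array with every gene, and neighbouring fractions are not independent, so that no p is given. Among 28 pairs of members, 14 reached 0.7 in the coronal plane, 6 in the horizontal plane and 10 in the sagittal plane. The median r was 0.70, 0.31 and 0.52. No share over pairs of other genes is given, so these counts do not set the members apart. Smooth coronal profiles were common, with 51.8% of all probes passing the coronal curve. En2 and Pax3 were the pair with the highest r in the plane where they agreed least, with 0.97, 0.88 and 0.94 in the coronal, horizontal and sagittal planes. En2 and Pax8 had 0.96 and 0.91 in the coronal and sagittal planes and -0.25 in the horizontal plane. Pax6 and Pax7 had -0.11 and -0.54 in the coronal and horizontal planes and 0.77 in the sagittal plane. Values of En1 and Pax5 were mostly below detection, and their r describes mainly readings near background.

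**Figure D4:**
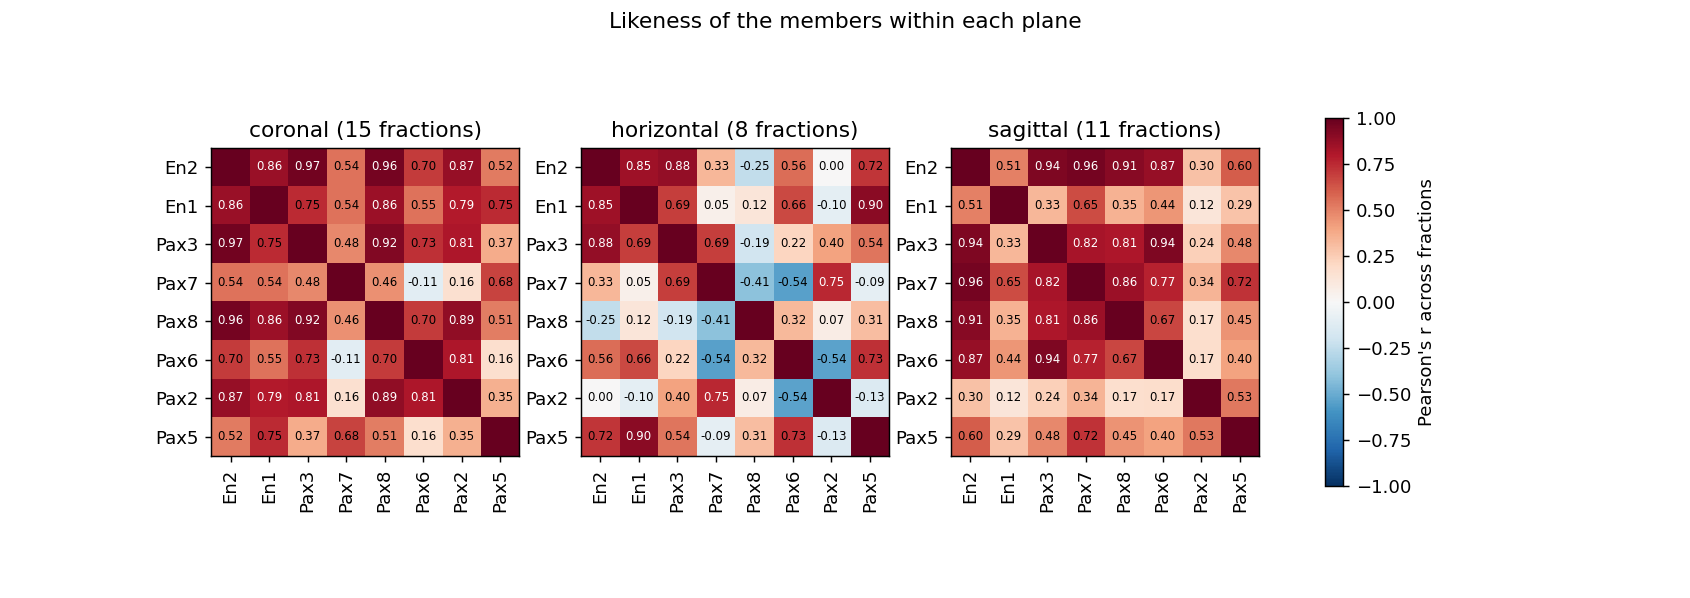
Pearson's r between members across the fractions of each plane, 1 probe per gene, with colour from -1 in blue to 1 in red and the value in each cell. En2 and Pax3 stay at 0.88 or higher in all 3 planes, while En2 and Pax8 go from 0.96 in the coronal plane to -0.25 in the horizontal plane.

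For each member, the 3 named genes with the highest value of their lowest r over the planes were taken from 20957 probes detected at least once in each plane. For Pax8 these were the Hox genes Hoxb3, Hoxb2 and Hoxa3, with lowest r of 0.96, 0.95 and 0.95. For Pax7 they were Tal1, Sox14 and Gata3, regulators of midbrain GABA neurons, with 0.94, 0.87 and 0.86. For En2 they were Pcp2, a Purkinje cell gene, Kirrel2 and Fzd1, with 0.89, 0.88 and 0.87. For Pax3 they were Irx5, Ebf3 and Tfap2a, with 0.90, 0.89 and 0.88, and for Pax6 Map3k1, E130114P18Rik and Pde1c, with 0.93, 0.92 and 0.91. The genes nearest to the dim members were less alike, Slc12a8, Gkn1 and Icmt for Pax2 with 0.74, 0.71 and 0.70, C1ql4, Slc6a4 and Nps for Pax5 with 0.67, 0.59 and 0.59, and Prom1, Gab1 and Slc17a8 for En1 with 0.65, 0.65 and 0.65.

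Other genes of the pathways were taken from lists. Over all probes, 4.88% were higher and 9.58% lower in coronal fractions 1 to 6, and 4.07% and 4.56% in the sagittal middle. Differences of list genes used the measured readings without a floor, also where a gene was not detected. Of the 12 genes of the isthmic organizer and its FGF and WNT signals, 11 were tested in the coronal comparison, and 2 were higher in fractions 1 to 6 and 1 lower. Otx2, a midbrain and forebrain homeobox gene, differed by 1.92 (limma adjusted p = 0.0178), Il17rd, an FGF signalling antagonist, by 0.61 (0.0442) and Dusp6, an FGF target phosphatase, by -0.35 (0.0316). The median difference of the list was 0.62, beside -0.09 over all probes. In the sagittal comparison 2 of 11 were higher in the middle, Il17rd by 0.66 and Fgf18 by 0.45, and Dusp6 was lower by -0.27. Fgf17 was not detected in any fraction, and Fgf8 was detected in 13 coronal fractions with its highest value of -0.43 in fraction 1.

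Of the 9 genes for midbrain tectum and midbrain GABA neurons, 8 were tested in the coronal comparison. Of these, 5 were higher in fractions 1 to 6, against 4.88% of all probes, and the median difference of the list was 2.51. Pou4f2 and Pou4f1, transcription factors of tectal neurons, differed by 5.98 and 3.75, Tfap2b by 3.88 and Sox14 by 2.14. In the sagittal comparison 6 of 9 were higher in the middle, against 4.07% of all probes, with Pou4f2 at 4.38, Pou4f1 at 3.32, Tfap2b at 3.21 and Tal1 at 1.68. Of the 8 tested genes of the cerebellar interneuron lineage, 3 were higher in coronal fractions 1 to 6, Ptf1a by 3.90, Lhx1 by 2.86 and Lhx5 by 2.13. Ptf1a was detected in 6 coronal fractions. In the sagittal middle 2 were higher, Lhx5 by 1.73 and Gad1 by 0.44.

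Of the 10 partners and corepressors of Pax and Engrailed proteins, 1 was higher in coronal fractions 1 to 6, against 4.88% of all probes. This was the homeobox cofactor Meis1, by 2.18 (limma adjusted p = 0.000709). None differed in the sagittal comparison. Of the 12 genes of the network that Pax6 shares with the Eya and Dach genes, Dach1 and Six4 were higher by 1.34 and 1.07 in coronal fractions 1 to 6, and Six6 was lower by -2.78. In the sagittal comparison Six6 was higher in the middle by 3.22, and 1 gene of the list was lower. Six6 was detected in only 4 coronal and 4 sagittal fractions, so its differences rest largely on undetected readings. Of the 10 genes of cortical progenitors and Pax6 targets, 5 were lower in coronal fractions 1 to 6, against 9.58% of all probes, and the median difference of the list was -0.88. Among them were Tbr1 at -5.03, Emx1 at -4.94 and Emx2 at -2.53. The difference of Pax6 itself had the opposite sign, but its call depended on single fractions and on the probe. In the sagittal middle 4 of the list were lower, against 4.56% of all probes, among them Emx1 at -1.37, Lhx2 at -0.95 and Nr2f1 at -0.76, and 1 was higher, the neural progenitor gene Sox2, by 0.50. Sox2 lay outside the naming rule and was named after its value was seen.

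Of the 8 genes of olfactory bulb interneurons and mitral cells, 5 were lower in coronal fractions 1 to 6, against 9.58% of all probes. They were led by Dlx2 at -6.58, Dlx1 at -6.43, Dlx5 at -5.50 and Sp8 at -4.21. In the sagittal middle 5 were higher, against 4.07% of all probes, led by Tbx21 at 3.20, Cdhr1 at 2.31, Sp8 at 1.96 and Th at 1.92. In limma 0 genes of these lists passed the horizontal comparison. The Pax genes outside the group, Pax1, Pax4 and Pax9, were not detected in any of the 34 fractions.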

How the data were processed

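The authors scanned 34 single-colour Agilent arrays with Agilent Feature Extraction 10.10.1.1 (array annotation build mm9) and deposited the processed signal intensity of every spot, already background-subtracted, together with a table of log2 values. That deposited log2 table equalled log2 intensity less a constant per array, within 0.02 for 99.9% of its values. Here the spots of a probe were averaged, log2 taken and the 75th percentile of the array subtracted. Probes were named through RefSeq accessions (26576 of 55681 matched). Probes detected in at least 1 fraction of a plane were tested with limma 3.58.1 (R 4.3.3) and Benjamini-Hochberg adjustment at 0.05 over all of them. Simulated data with 200 planted steps of 2 on the log2 scale gave 182, 164 and 176 recovered for the coronal, horizontal and sagittal comparisons. False calls numbered 11, 12 and 10. The simulated noise was independent between fractions and had only the spread left after a smooth curve. Measured fractions also vary along the axis within each group, so these counts do not give the recovery to be had in the real data. Of several probes of a gene, the one with the highest median signal stood for it. The genes named were all member probes, the 3 most similar named genes of each, and up to 4 called genes of a list with the largest difference, and some list genes are not reported here. The members, the lists and the border of the coronal comparison were chosen with earlier results of these data known. Alternatives covered scaling, background correction, filters, slides, borders and single fractions. The median-spot signal was used for normexp.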

Additional observations from a re-analysis of the deposited data

Results flagged for a closer look

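In 26 groups of values searched for an outlying one, 2 had one, and chance alone gives about 1 group in 20. The third Pax2 probe, A_55_P2148518, read -4.42 in horizontal fraction 5, while the next highest horizontal value was -5.86. The dimmer Pax6 probe, A_52_P469306, had a difference of -1.06 between sagittal fractions 11 and 1, while the nearest of the other mirror pairs had 0.15. It was not detected in either of these fractions.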

How the results depend on the processing

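For single members, the comparisons kept their direction and their side of the threshold 436 times under the alternatives, lost the call 50 times, gained one 13 times and changed sign 14 times. The curves along the axis kept their side 199 times, lost the call 12 times and gained one 9 times. Pax2 changed sign in the sagittal comparison, to -0.25 with normexp (adjusted p = 0.0414), -0.11 without slide 5 and -0.22 with the slide as a block or within slide 4, and in the horizontal one with another probe, to -0.28. En2 changed to -0.0055 in the horizontal comparison without slide 5, with the slide as a block and within slide 1. Pax5 changed to -0.083 and -0.21 with normexp in the coronal and sagittal comparisons, and in the horizontal one to -0.38 with the slide as a block, to -0.76 with the border after fraction 3, and over -0.12 to 0.39 when single fractions were left out. In the coronal comparison 6 members passed, and 2 did with probes detected in every fraction or with the slide as a block, and 0 within slide 2. In the sagittal comparison 2 of 7 passed, 1 of 8 without a filter and 1 of 2 with probes detected in every fraction. Of all probes, 3.01% passed in either direction without a filter and 17.5% with every fraction detected. The member count was 0 without slide 5, with the slide as a block, within slide 4 or with a middle of 3 fractions. Shares of all probes there were 0.0080%, 0.0052%, 0.00% and 0.0287%. The member count was 5 with a middle of 7 fractions and 5 with a slope against distance from the middle. Under the last-named settings 11.0% and 23.8% of all probes passed in either direction, against 8.62%. Leaving out single fractions gave 5 to 6 in the coronal comparison and 0 to 3 in the sagittal one, 0 without fraction 5 and 3 without fraction 3. The curve along the axis was passed by 8 of 8 members in the coronal, 1 of 7 in the horizontal and 4 of 7 in the sagittal plane. With probes detected in every fraction it was passed by 2 of 2, 2 of 3 and 2 of 2 members tested. Of all probes with that setting, 73.1%, 5.58% and 21.0% passed. The horizontal count was 3 with normexp, 4 with limma-trend and 0 without a filter, without slide 5 or without fraction 1, and the sagittal count was 2 without slide 5. Of all probes, 5.96% passed the horizontal curve with normexp and 5.85% with limma-trend, against 0.492%. The share was 0.0072% without a filter, 0.00% without slide 5 and 0.0274% without fraction 1. On the sagittal curve 1.21% passed without slide 5, against 9.93%. Of 84 r values between members, 30 were at least 0.7, and 18 were with Spearman rank correlation and 18 with normexp. Of the 24 most similar genes, 8 were also found with r over all 34 fractions. The causes of these changes were not tested, except that fewer members were tested where every fraction had to be detected.

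Normexp moved the median difference of all probes to -0.15 in the coronal and sagittal comparisons, and dropped the coronal calls for Pax2 and En1. Calls over all probes were 1926 higher and 3777 lower in the coronal comparison, against 2140 and 2567 with quantile normalization. In the sagittal comparison they were 1556 and 1745, against 870 and 2602 with array medians, 2190 and 13405 with normexp, 2 in all with the slide as a block and 3 without slide 5. In the coronal comparison 35 probes passed with the slide as a block and 10 within slide 2. In the horizontal comparison 2 passed, and 478 did with the slide as a block, 135 without slide 5, 324 with limma-trend and 286 with normexp. Pax5 and En1, mostly below background, changed their highest fraction with normexp in each plane. No paired analysis was possible because every position was measured once and the 3 planes share no numbered replicates, apart from the mirror fractions of the sagittal plane, which were tested as pairs. Signals of Pax2, Pax5 and En1 near background limit what the arrays can show of them.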
